A study of Caenorhabditis elegans with 2 samples.

Results

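The genes described here encode the contractile filaments of nematode muscle and the structures that fasten those filaments to the cell membrane. They were chosen by name: 42 listed genes, all found as protein-coding genes in the WBcel235 annotation, of 19973 nuclear protein-coding genes in all. By the known place of their products, 30 were taken as filament genes and 12 as attachment genes. The series measured where DAF-16, the FOXO transcription factor downstream of insulin-like signalling, sits on chromatin, by chromatin immunoprecipitation and sequencing of whole animals. It holds 1 group of 2 biological replicates: L4 larvae, males and females pooled, of strain XE1464. Both replicates carried the unc-119(ed3) III background and a stable transgene for DAF-16 with GFP and FLAG at its C terminus, and no mutant or treated animals were compared. The labels used here name neither the promoter nor the copy number of the transgene. Because chromatin came from whole larvae, muscle was 1 tissue among many, and binding in few cells cannot be told apart from weak binding in many.

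Body wall muscle of Caenorhabditis elegans is obliquely striated. Thick filaments of myosin wound on a paramyosin core slide past thin filaments of actin, tropomyosin and troponin. Dense bodies, the counterpart of vertebrate Z-discs, and M-lines tie both filament systems through integrins to the matrix outside the cell. The pharynx, which pumps food, has its own set of myosin and troponin genes. Loss of many of these genes arrests embryos paralysed during elongation, the Pat phenotype that gave several of them their names.

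A gene was called bound when a peak summit fell in its promoter window, which ran from 1000 bp before to 300 bp after any annotated start of its protein-coding transcripts. The peaks were those the authors kept by their irreproducible discovery rate (IDR), which compares peak ranks between replicates, and 8748 of them were nuclear. The signal of a peak in that list is called its combined signal below. The signal of a peak is the authors' own score, whose scale is not stated. It ranks peaks within a list, and over the 8748 peaks its median was 107 and its lowest value 35.4. The files give no read counts, so the depth behind each peak is unknown.

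DAF-16 summits stood at the promoters of 5 of the 42 muscle genes (11.9%, 95% Wilson interval 5.19 to 25.0), against 23.9% of all protein-coding genes by the same call. The 5 genes were lev-11, which encodes tropomyosin, unc-60, which encodes proteins of the actin-severing ADF/cofilin family, pat-4, which encodes integrin-linked kinase, pat-6, which encodes parvin, and deb-1, which encodes vinculin. Of the filament genes 2 of 30 were bound (6.67%, 1.85 to 21.3), and of the attachment genes 3 of 12 (25.0%, 8.89 to 53.2). The filament share lay below that of all genes and the attachment share next to it, but the intervals of both classes overlap. Genes are not replicates of a condition, so these shares are a description with counting error, and the difference between the classes was not tested. From replicate 1's strongest 8777 peaks alone, as many as the IDR-thresholded list holds, 4 filament and 5 attachment genes had a window summit. The strongest 8777 of replicate 2 alone gave 2 and 4. Of all 42 members these lists gave 21.4% and 14.3%, beside 22.7% and 23.7% of all protein-coding genes.

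**Figure D1:**
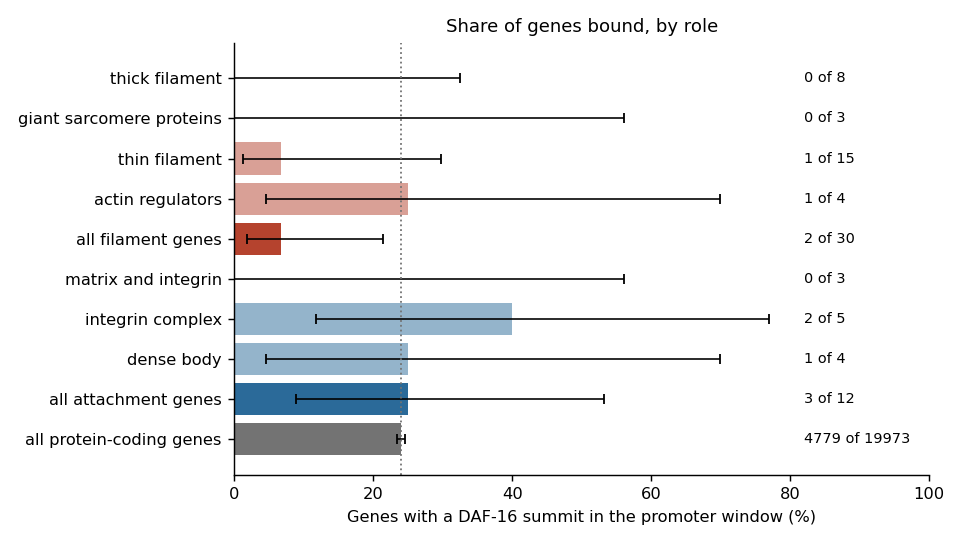
Share of genes with a DAF-16 summit in the promoter window, in percent, for each role among the filament genes (red) and the attachment genes (blue) and for all protein-coding genes (grey). Whiskers are 95% Wilson intervals, the dotted line is the share of all protein-coding genes, and counts stand at the right. No thick filament or giant protein gene was bound, and the intervals of the small classes are wide.

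None of the 8 thick filament genes was bound. Those are the body wall myosin heavy chain genes unc-54 and myo-3, the pharyngeal heavy chain genes myo-1 and myo-2, the paramyosin gene unc-15, and the light chain genes mlc-1, mlc-2 and mlc-3. The Wilson interval of 0 of 8 reaches 32.4%, so a share like that of all genes is within it. Of the 8, 6 had no peak within 5 kb of either end of the gene. The nearest summit to a start was 11721 bp away for myo-3, 15738 bp for myo-1 and 22061 bp for unc-15. The summit nearest to unc-54 lay 4305 bp upstream of its start, with a combined signal of 186, and belonged to the window of the neighbouring gene F11C3.1.

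The pharyngeal gene myo-2 (WBGene00003514, chromosome X, 12468061 to 12475348, forward strand) came closest to the limit of the window without being bound. A summit with a combined signal of 326 lay 1080 bp upstream of its start, where replicate 1 had a signal of 168 and replicate 2 one of 128. That summit was 64 bp upstream of cdf-2, a cation diffusion facilitator gene, and counted for cdf-2. On the inner side of the limit, the unc-60 summit at 517 bp upstream was the farthest of any bound member.

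None of the 3 genes for giant sarcomere proteins was bound either: unc-22 (twitchin), unc-89 (obscurin) and ttn-1 (titin). They are also the members with the longest loci. ttn-1 spans 81724 bp with 5 annotated starts, unc-89 spans 55184 bp with 5, and unc-22 spans 38311 bp with 5. Not a single IDR-thresholded summit fell inside any of them or within 5 kb. Across all protein-coding genes, 11.4% had at least 1 summit inside the gene and 54.3% at least 1 within 5 kb.

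Of the 15 thin filament genes, lev-11 was bound and 14 were not. The unbound ones were the actin genes act-1, act-2, act-3 and act-4, the troponin I genes tni-1, tni-3, tni-4 and unc-27, the troponin T genes mup-2, tnt-2, tnt-3 and tnt-4, and the troponin C genes pat-10 and tnc-2. The lev-11 summit, at 14625921 of chromosome I, had a combined signal of 82.4, with 18.9 in replicate 1 and 42.2 in replicate 2. It lay inside the gene (WBGene00002978, 14621169 to 14631094, reverse strand), in an intron, 475 to 487 bp upstream of a cluster of internal starts. The first start of lev-11 had no summit in its window, so with the 5'-most start of each gene alone lev-11 was not bound. The filament count was then 1 of 30 (3.33%), beside 22.3% of all protein-coding genes.

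The troponin I gene unc-27 (WBGene00006764, chromosome X, 8789456 to 8790621, forward strand) had the strongest peak on the upstream side of any member, outside the window. Its signal was 603, rank 95 of 8748, and the summit lay 1393 bp upstream of the start in intergenic sequence. Replicate 1 gave 371 and replicate 2 gave 231 at the same place, ranks 132 and 135 of their own lists. The peak was in no gene's window and its nearest start was that of unc-27. With a window of 2000 bp upstream, unc-27, myo-2 and the calponin-like gene cpn-3 were bound too. The filament count became 5 of 30 (16.7%), beside 29.1% of all protein-coding genes by that window.

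The actin genes act-1, act-2 and act-3 lie side by side on chromosome V and encode nearly identical proteins. In the thresholded list none of them, nor act-4, had a summit in the window. In the pooled list, which also holds background regions, each had a weak entry there. The entry of act-2 had a signal of 25.5 and rank 10199 of 22466, that of act-1 22.7 and rank 10770, that of act-3 17.4 and rank 12287, and that of act-4 3.57 and rank 21895. The lowest signal that passed the IDR threshold was 35.4, so all 4 lay below it. Such entries were not particular to the actin genes. Of the 28 unbound filament genes 7 had one, among them pat-10 (27.4), cpn-3 (21.5) and unc-27 (8.04). Of all protein-coding genes 33.7% had a pooled entry of any strength in the window. Strong peaks stood past the 3' end of act-3, with signals of 602 at 1034 bp and 810.5 at 2236 bp. The peak with 810.5, rank 27 of 8748, lay 96 bp upstream of T04C12.8 and counted for that gene. Of the act-1 window, 21.6% consisted of 50-base words that occur elsewhere in the genome, and the windows of tnc-2 (31.0%) and tnt-4 (12.2%) also held such repeats. In the other 39 members these words made up 10% of the window or less. Reads from repeated words can match several places, and how the authors placed such reads is not stated.

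Among the 4 actin regulator genes, unc-60 was bound, and unc-78 (actin-interacting protein 1), unc-87 (calponin-like repeats) and cpn-3 were not. The unc-60 window held 2 summits: 1 upstream by 517 bp with a signal of 134, and 1 downstream by 113 bp, in an intron, with a signal of 35.5. The upstream peak had 62.9 in replicate 1 and 77.6 in replicate 2. The downstream peak, rank 8733 of 8748, had 8.42 in replicate 1 and 34.1 in replicate 2. In the annotation F53E2.2 begins at the same base as unc-60 (1475086 of chromosome V, forward strand), so both peaks counted for both genes. Another summit inside unc-60, at 1108 bp from the start and with a signal of 58.2, lay in the 3' UTR of F53E2.2.

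**Figure D2:**
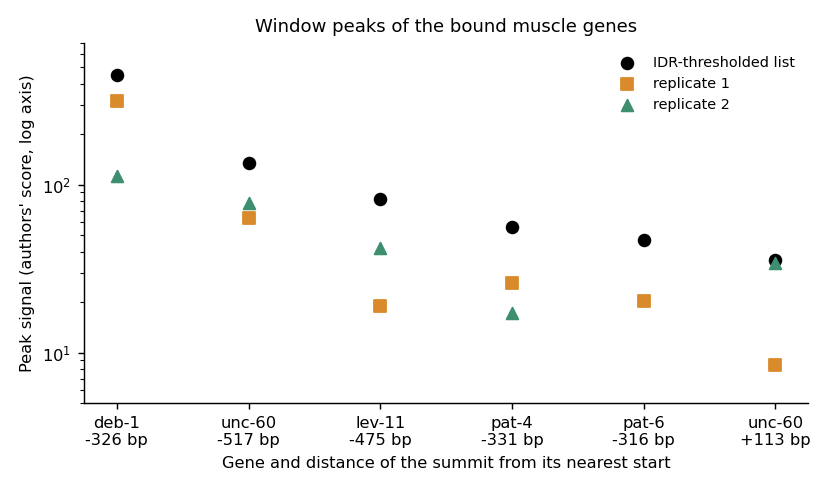
Signal of each of the 6 window peaks of the 5 bound muscle genes, on a log axis, in the IDR-thresholded list (circles), replicate 1 (squares) and replicate 2 (triangles), with the gene and the distance of the summit from its nearest start below. The deb-1 peak stands above the others in each list, and the pat-6 peak has no point for replicate 2. The scale of the score is not stated, so heights compare peaks within a list.

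Among the attachment genes the strongest promoter peak was that of deb-1 (WBGene00000942, chromosome IV, 7085215 to 7094266, reverse strand). Vinculin, its product, links integrin sites to actin at the dense body. The combined signal of the deb-1 peak was 447, rank 293 of 8748, with 316 in replicate 1 and 111.9 in replicate 2. Its summit, 326 bp upstream of the first start, lay in intergenic sequence and in the window of no other gene. Both replicates placed it within 2 bp of that position. Over the 5 bound muscle genes the median of the strongest window signal was 82.4, against 122 over the 4779 bound protein-coding genes.

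The other 2 bound attachment genes had weak peaks. Both encode parts of the complex at the integrin tail, in which integrin-linked kinase (pat-4), parvin (pat-6) and PINCH (unc-97) assemble. The pat-4 peak, 331 bp upstream, had a combined signal of 55.7, rank 6925 of 8748, with 26.1 in replicate 1 and 17.3 in replicate 2. The pat-6 peak, 316 bp upstream, had 47.1, rank 7558, with 20.4 in replicate 1 and no summit within 100 bp in replicate 2. Each lay in intergenic sequence and in the window of that gene alone. With the stronger 50% of peaks pat-4 and pat-6 were no longer bound. The bound members were then deb-1 and unc-60 (4.76% of members, beside 13.5% of all protein-coding genes).

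The attachment genes without a window summit were the perlecan gene unc-52, the integrin genes pat-2 (alpha) and pat-3 (beta), unc-97, the LIM-domain gene unc-95, the kindlin gene unc-112, the alpha-actinin gene atn-1, the zyxin gene zyx-1 and the immunoglobulin-domain gene dim-1. Of these 9, unc-52, pat-2, unc-97, unc-95 and dim-1 had no peak within 5 kb. For unc-95 the nearest summit to the start was 84616 bp away and for unc-97 60894 bp, the largest distances of any member. The upstream peak of atn-1, 2862 bp from its start, had a combined signal of 284, with 183 in replicate 1 and 105 in replicate 2. That peak was in no gene's window, and its nearest start was that of atn-1.

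At unc-112 the replicates and the combined lists differed. Replicate 1 had a peak 362 bp upstream of the start, with a signal of 90.6 and rank 2638 of 16146. Replicate 2 had one 285 bp upstream, with a signal of 73.0 and rank 2352 of 21378, and the summits were 77 bp apart. The pooled list had no entry within 500 bp, its nearest summit being 965 bp from that of replicate 1, and the IDR-thresholded list had no peak there. Among the strongest 8777 peaks of each replicate, 5607 nuclear peaks of replicate 1 had a partner within 100 bp in replicate 2, and 76 of these (1.36%) had no pooled summit within 500 bp. The unc-112 locus was the single case within 5 kb of any of the 42 genes. By the call used here unc-112 is unbound, although both replicates rank a peak at its promoter above the pat-4 peak. Replicate 1 also ranks it above the pat-6 peak, which has no match in replicate 2.

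The sequences below are RefSeq WBcel235, 151 bases around a summit, read 5′ to 3′ on the strand of the gene, so that base 76 is the summit. They show the deb-1 and atn-1 peaks, which hold motifs linked to DAF-16, the strong unc-27 peak, the weaker promoter peaks that hold none, and the unc-112 peak of replicate 1. Capitals mark the DAF-16 binding element GTAAACA (DBE), the DAF-16 associated element CTTATCA (DAE), the GATA sequence TGATAA and the E-box CACGTG on either strand. Each DAE contains a TGATAA on its other strand. No sequence is shown for lev-11.
deb-1, chrIV:7094517-7094667: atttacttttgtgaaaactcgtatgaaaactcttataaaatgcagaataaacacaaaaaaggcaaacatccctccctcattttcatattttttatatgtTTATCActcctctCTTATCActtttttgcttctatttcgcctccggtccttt
atn-1, chrV:12475474-12475624: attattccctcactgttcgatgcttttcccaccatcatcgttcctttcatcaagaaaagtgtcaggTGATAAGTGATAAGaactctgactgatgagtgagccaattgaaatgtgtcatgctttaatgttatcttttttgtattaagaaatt
unc-27, chrX:8787988-8788138: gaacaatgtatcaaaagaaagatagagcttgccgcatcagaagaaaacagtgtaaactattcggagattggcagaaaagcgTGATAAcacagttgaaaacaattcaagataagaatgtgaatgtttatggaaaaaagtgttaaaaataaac
unc-60, chrV:1474494-1474644: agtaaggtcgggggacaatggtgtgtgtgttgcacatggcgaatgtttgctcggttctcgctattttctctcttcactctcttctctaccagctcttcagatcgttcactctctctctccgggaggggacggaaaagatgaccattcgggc
pat-4, chrIII:95065-95215: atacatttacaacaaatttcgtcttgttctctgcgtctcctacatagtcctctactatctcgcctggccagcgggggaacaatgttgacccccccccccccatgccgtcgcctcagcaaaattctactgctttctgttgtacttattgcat
pat-6, chrIV:264473-264623: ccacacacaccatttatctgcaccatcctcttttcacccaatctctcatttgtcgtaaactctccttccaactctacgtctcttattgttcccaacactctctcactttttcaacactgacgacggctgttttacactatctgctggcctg
unc-112, chrV:14696941-14697091: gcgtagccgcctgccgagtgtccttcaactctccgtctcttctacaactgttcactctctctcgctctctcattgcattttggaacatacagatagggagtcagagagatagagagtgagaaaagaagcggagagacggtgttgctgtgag

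The deb-1 peak held a DAE centred 40 bp downstream of the summit and a separate TGATAA 26 bp downstream. At atn-1 a pair of DAEs stood in tandem in the reverse orientation, and the second was centred 1 bp from the summit. The unc-27 peak held a TGATAA 8 bp from the summit. The DBE was found within 75 bp of 0 of the 6 window peaks of muscle genes, the DAE at 1 and TGATAA at 1, both at deb-1, and the E-box at 0. Among the 4693 peaks in the window of any protein-coding gene, the shares were 9.06% for the DBE, 21.1% for the DAE, 40.2% for TGATAA and 5.77% for the E-box. A count over 6 peaks is too small to set against those shares.

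The motifs themselves were present in muscle promoters without a peak. A DBE lay in the window of the first start of 8 of the 37 unbound members (21.6%), among them unc-54, unc-89 and pat-3, against 15.8% of all protein-coding genes. The DAE lay in 8 of 37 (21.6%) against 24.8%, and TGATAA in 29 of 37 (78.4%) against 74.4%. A match of 6 or 7 letters is a description of sequence, not of a binding site.

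Most of the DAF-16 peaks near the 42 listed genes lay on the far side of the gene. Some genes supplied several of them, as did zyx-1 and unc-112 with 4 each, all past the 3' end. Among the other muscle genes described below, summits past the 3' end were also more frequent than those upstream or those inside the gene, though not the majority. Their share there lay between those of the 42 genes and of all protein-coding genes. Within 5 kb of the 42 genes there were 53 summits, 30 near filament genes and 23 near attachment genes. Of the 53, 16 were upstream, 3 inside the gene and 34 past the 3' end (64.2%), whereas over all pairs of a protein-coding gene and a summit within 5 kb 37.9% were past the 3' end. Outside the windows of the muscle genes lay 47 of the 53, and 23 of those counted for another gene. Examples are the peak 233 bp past the 3' end of deb-1, with a signal of 338, which lay 300 bp upstream of the ribosomal protein gene rps-4, and the peak with a signal of 265 at 3244 bp past the end of unc-112, in the windows of C47E8.11 and gasr-8. Of the 47, 7 had a muscle gene's start as the nearest one, and all 7 were in no window. The same counts were not made over all protein-coding genes, so they have no reference. Having no peak at all within 5 kb was the case for 22 of 42 muscle genes (52.4%), 17 of 30 filament genes (56.7%) and 5 of 12 attachment genes (41.7%), and for 45.7% of all protein-coding genes.

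**Figure D3:**
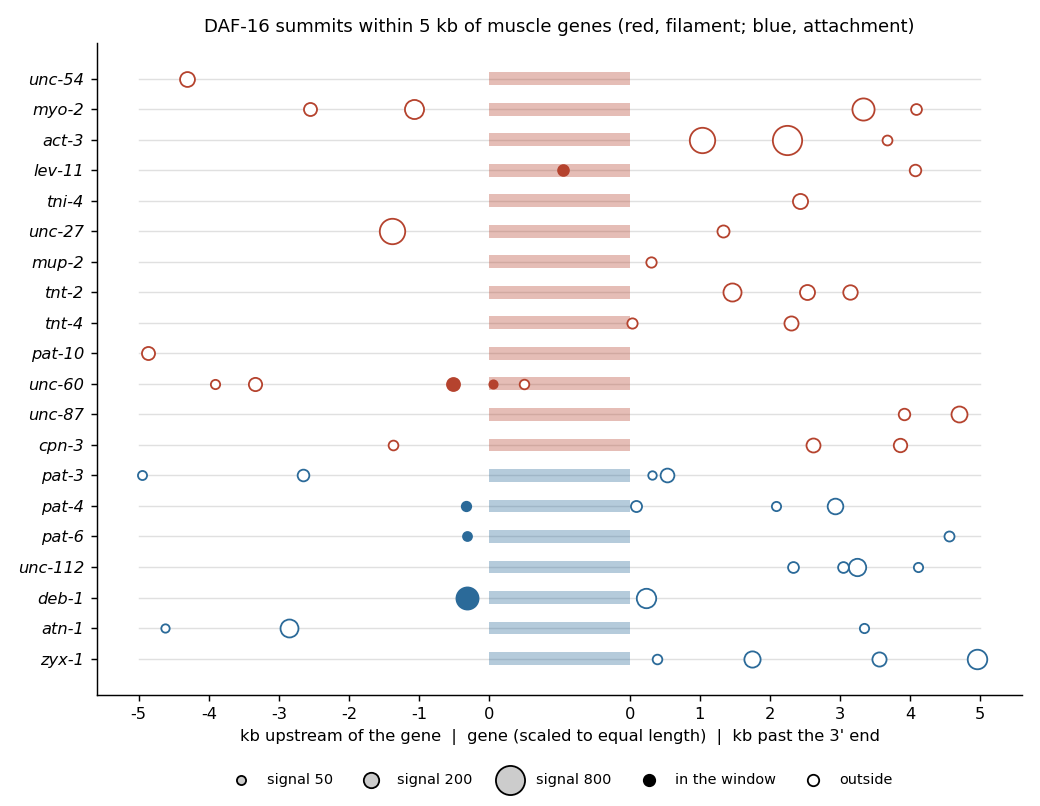
Summits of IDR-thresholded peaks within 5 kb of the 20 muscle genes that had any, with filament genes in red above attachment genes in blue. The horizontal axis gives kb upstream of the gene, then the gene drawn to equal length, then kb past the 3' end; circle area grows with the signal, and filled circles are in the promoter window. Filled circles appear at 5 genes, and 34 of 53 summits lie to the right of the gene.

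The upstream regions of muscle genes were longer than those of most genes. The distance from the gene to the next protein-coding gene upstream had a median of 2897 bp over the members, 2772 bp over the filament genes and 3588 bp over the attachment genes, against 937 bp over all protein-coding genes. Where that distance was 1000 bp or more, 5 of 39 members were bound (12.8%), against 21.2% of 9604 protein-coding genes. The filament genes had 2 of 27 bound there (7.41%) and the attachment genes 3 of 12.

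Other muscle genes, from a list of 38 that are not members, were bound in 4 cases (10.5%, 4.17 to 24.1), against 23.9% of all protein-coding genes. The list was chosen, like the members, with earlier results of these data known. The matrix gene nid-1, which encodes nidogen, had a peak with a signal of 427 at 284 bp upstream of a start. The dense body gene uig-1 had 241 at an internal start, in sequence annotated as its 3' UTR. The tropomodulin gene unc-94 had 226 at 74 bp upstream of a start inside the gene. The LIM-domain gene lim-8 had 67.9, without a summit within 100 bp in replicate 1. That summit lay 945 bp upstream of a start inside lim-8, in an exon of another annotated gene. None of the 10 excitation and contraction genes was bound, among them the ryanodine receptor gene unc-68, the calcium channel gene egl-19 and the dystrophin gene dys-1, and 0 of 10 allows a share of up to 27.8% by the Wilson interval. The muscle transcription factor genes hlh-1, unc-120 and hnd-1 had no summit in the window.

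The filament share stayed below the attachment share under each peak list and window tried. With 500 bp upstream to 100 bp downstream it was 3.33% against 25.0%, beside 18.9% of all protein-coding genes. With 2000 bp upstream it was 16.7% against 25.0%, beside 29.1%. Taking the 5'-most starts alone gave 3.33% against 25.0%, beside 22.3%, and giving each peak to its nearest start gave 6.67% against 25.0%, beside 19.8%. The stronger 50% of peaks gave 3.33% against 8.33%, beside 13.5%, which was 1 gene in each class. The pooled list gave 30.0% against 33.3%, beside 33.7%, which was 9 of 30 genes against 4 of 12. From the strongest 8777 peaks of replicate 2, without replicate 1, the shares were 6.67% and 33.3%, beside 23.7%, and from those of replicate 1, without replicate 2, 13.3% and 41.7%, beside 22.7%. Peaks matched in both replicates gave 6.67% and 16.7%, beside 19.6%. These settings share the same 42 genes and most of their peaks, so they are not independent of each other.

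**Figure D4:**
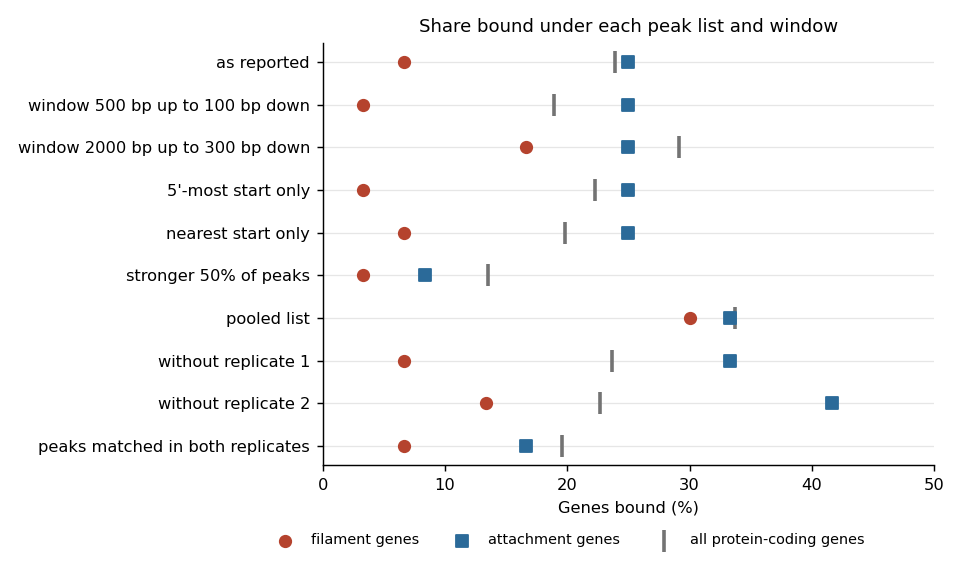
Share of filament genes (red circles), attachment genes (blue squares) and all protein-coding genes (grey bars) with a DAF-16 summit in the window, in percent, under each peak list and window. The filament share lies below the attachment share in each row, and the shares are closest in the pooled list (30.0% and 33.3%).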

How the data were processed

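DAF-16 chromatin immunoprecipitation was sequenced in 2 biological replicates of whole L4 larvae, with chromatin sonicated, per the labels. The authors deposited peak lists on build ce11 for each replicate, for both pooled, and after an IDR threshold, each made with a control file per the file listing. The signal of each peak is a score deposited by the authors without its scale. No source used here names the aligner, the peak caller, the IDR threshold or the read depth. The ce10 lists were not used. Summits (peak start plus offset, 1-based) were joined to Ensembl release 115 starts of protein-coding transcripts and to RefSeq WBcel235 sequence, after peak ends had been compared with chromosome lengths. Replicate summits within 100 bp were matched. Wilson intervals are at 95% and cover counting error only. No p-value was computed, because the series has 1 group. The labels do not say how the replicates were separated. Genes and lists were chosen with earlier results of these data known. Named genes were all members, and the bound genes of a list of other muscle genes. Alternatives were other windows, starts, peak lists, classes and motif widths, and peaks matched in both replicates, chosen after seeing the data. The window call and motif search were tested on simulated data. The tools were scipy 1.17.1, matplotlib 3.10.9, pandas 2.3.3 and numpy 2.4.6 under Python 3.11.15.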

Additional observations from a re-analysis of the deposited data

How the results depend on the processing

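As reported, 5 members (11.9%), 2 filament genes and 3 attachment genes were bound, beside 23.9% of all protein-coding genes. From 1 replicate's own strongest peaks, as many as the IDR-thresholded list holds, the counts ranged from 6 to 9 members. Filament genes ranged from 2 to 4 and attachment genes from 4 to 5. For members that was 14.3% in replicate 2 and 21.4% in replicate 1, beside 23.7% and 22.7% of all protein-coding genes. The window of 2000 bp upstream gave 8 members and 5 filament genes, and that of 500 bp upstream to 100 bp downstream gave 1 filament gene. The 5'-most starts alone gave 1 filament gene, as did leaving out giant proteins and actin regulators. The stronger 50% of peaks left 2 members (4.76%), 1 filament gene and 1 attachment gene, beside 13.5% of all protein-coding genes. The pooled list, with its background regions, gave 13 members (31.0%) and 9 filament genes, beside 33.7% of all protein-coding genes. For these counts the other alternatives stayed within 1.5 times. The signals of the strongest window peaks in single replicates differed by more, except that of deb-1 in replicate 1. Peaks matched in both replicates, chosen after seeing the data, kept 4 members (9.52%), without pat-6, beside 19.6% of all protein-coding genes. Within 150 bp of the summit the DBE and the E-box each stood at 1 of 6 window peaks. No paired analysis was possible because there is 1 group. Read depth is unknown, so whether deeper libraries would give the unbound genes a peak was not tested.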
